A study of Homo sapiens with 3 samples.

Results

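The genes described here set the pace of the G1 phase of the cell cycle: a D-type cyclin and its kinases, inhibitors of these kinases, the atypical cyclin CCNG2 and the retinoblastoma family of pocket proteins. Their transcripts were measured with and without FK866 in MM1S, a long-established line of human multiple myeloma cells. This compound blocks NAMPT, the enzyme that returns nicotinamide to the NAD pool. The members are CCND3, CDK4, CDK6, CDKN1B, CDKN2C, CDKN2D, CCNG2, RB1, RBL1 and RBL2, taken with every probe set (the group of array probes that gives 1 signal) whose annotation names that gene alone. The annotation used here named probe sets for 9 of these 10 genes, among 19775 genes in all, and the 9 genes had 26 of 41097 such probe sets. CDKN2C has no value here because no probe set in this annotation names it alone, so this INK4 inhibitor was not analysed.

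There were 3 groups of 1 array each, all of MM1S cells: untreated cells labelled 0 h, cells treated for 6 h with FK866 at 10 nM, and cells treated for 24 h at that dose. The cells of every group grew in the same medium with serum. The untreated array is labelled 0 h, so an effect of FK866 cannot be told apart from an effect of time in culture. A single array per group allows no test, and each difference lacks a replicate check. The comparisons ask how transcript levels differed from untreated cells early and late under NAMPT inhibition, and between the treated arrays.

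In G1, cyclins D1, D2 and D3 bind CDK4 or CDK6, and cyclins E1 and E2 bind CDK2. These kinases phosphorylate the pocket proteins RB1, RBL1 (p107) and RBL2 (p130), which then release E2F transcription factors and allow genes of DNA replication to be transcribed. INK4 proteins, among them CDKN2C and CDKN2D, block CDK4 and CDK6, whereas CDKN1B (p27) mainly blocks CDK2 complexes. Myeloma cells commonly express high levels of a D-type cyclin, and in cells with a MAF translocation, such as MM1S, this is cyclin D2. CDKN1B, CCNG2 and RBL2 are known targets of FOXO transcription factors, which are active when growth signals are weak.

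Signals are linear, in arbitrary units, and were set to at least 16 before log2 values were taken. Probe sets stayed in when their average log2 value reached the median over all non-control probe sets, a signal of 19.1. This kept 21 of the members' 26 probe sets and at least 1 for each of the 9 genes, among 11883 genes in all. Each gene is represented by its brightest probe set, the kept one with the highest average. Over all genes the median log2 difference from untreated cells was -0.10 at 6 h and -0.13 at 24 h, and that between the treated arrays was -0.03. Array medians were 20.5, 17.4 and 17.2 in untreated, 6 h and 24 h cells, and 12 hybridisation spikes had median log2 differences of -0.16 at 6 h and -0.19 at 24 h. Poly-A spikes (10 probe sets), controls made to be added to the RNA before labelling, were lower at 6 h (-0.30), higher at 24 h (0.25) and higher at 24 h than at 6 h (0.56). The part of either kind of spike in the members' differences was not tested. All 9 plasma cell and MM1S markers had signals of at least 256 on every array (423 to 12686). All 8 markers of T, NK and myeloid cells stayed under 64, as did 3 of 4 stroma markers; COL1A1 had signals of 102, 53.4 and 19.3.

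By their brightest probe sets on the deposited scale, the G1 genes were within 1.5-fold of untreated cells, apart from CDK6 at 6 h, CDKN1B at 24 h and CCNG2 at 24 h. At 6 h, 0 of 9 members were at least 2-fold higher (background 1.44% of all genes) and 0 at least 2-fold lower (background 3.32%). At 24 h, 0 were at least 2-fold higher (background 1.14%) and 1, CCNG2, at least 2-fold lower (background 4.17%). Between 6 h and 24 h, 0 were at least 2-fold higher (background 1.09%) and 1, again CCNG2, at least 2-fold lower (background 1.84%). A single gene of 9 gives no share to read against these backgrounds. The median member differed from untreated cells by -0.24 at 6 h and -0.16 at 24 h, beside the medians of all genes given above, and 6 and 5 of the 9 members lay below the median gene. Between the treated arrays the members' median was 0.05.

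At a smaller size, 1.5-fold, the members past it were the same 3 genes. At 6 h, CDK6 was the only member past it on the lower side (background 11.4%), and 0 were past it on the higher side (background 5.71%). At 24 h, CCNG2 and CDKN1B were past it on the lower side (background 14.2%) and 0 on the higher side (background 5.03%). Between the treated arrays, CCNG2 was past it on the lower side (background 7.92%) and 0 members on the higher side (background 5.34%). The balance of calls over all genes depends on scaling: after quantile normalization 279 genes were 2-fold higher and 208 lower at 6 h, against 171 and 395 on the deposited scale, and at 24 h 288 and 264 against 135 and 495. Subtracting the median gene difference gave 228 and 271 at 6 h and 215 and 335 at 24 h. Neither scaling changed a 2-fold count of members, but 1.5-fold calls did change. CDK6 at 6 h fell short of 1.5-fold under quantile normalization (-0.49) and median subtraction (-0.52), as did CDKN1B at 24 h (-0.46 and -0.51). CDKN2D at 24 h went past 1.5-fold on the higher side under quantile normalization (0.61).

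**Figure D1:**
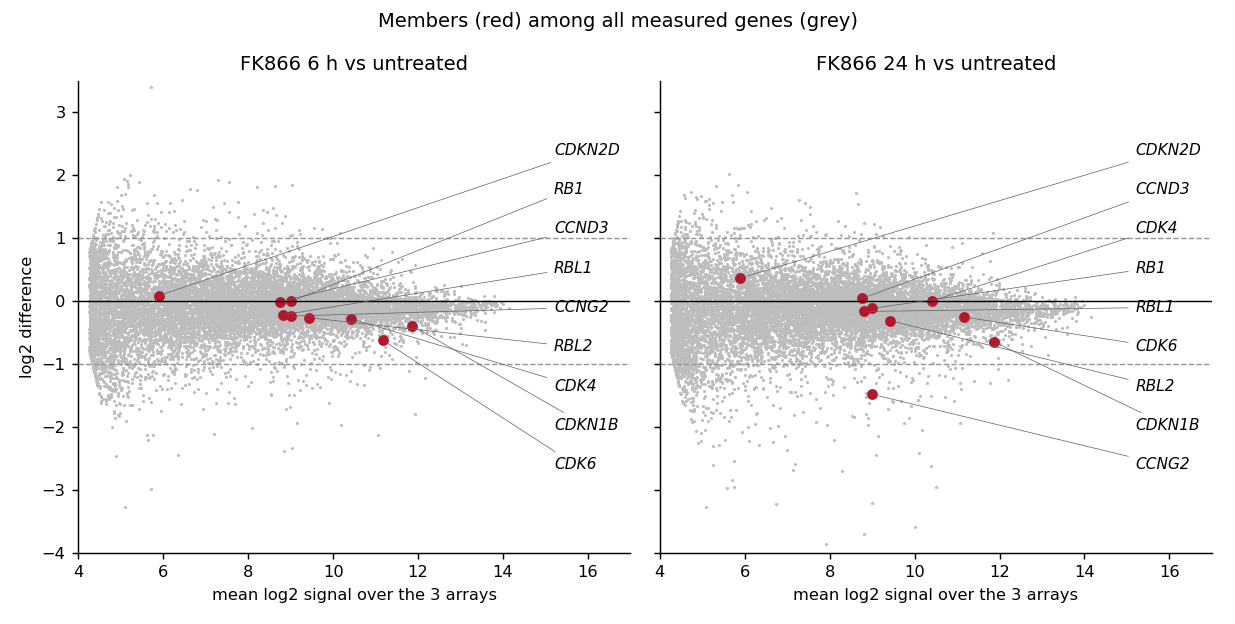
Log2 difference from untreated cells (vertical axis) against the mean log2 signal over the 3 arrays (horizontal axis) for all 11883 measured genes (grey points) and the 9 members (red points, named). Dashed lines mark 2-fold; CCNG2 at 24 h is the only member beyond them, and 2 grey genes at 24 h lie outside the vertical range.

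Cyclin D3, the member among the D-type cyclins, was level across the arrays. CCND3 gave 429 untreated, 427 at 6 h and 442 at 24 h, with log2 differences of -0.01 and 0.05 from untreated cells. Its second probe set gave 5.5, 17.7 and 2.5, mostly under the floor, and was not kept. Of the other D-type cyclins, CCND2 gave 10658, 6655 and 8272, a log2 difference of -0.68 at 6 h and -0.37 at 24 h. All 4 kept probe sets of CCND2 were lower at 6 h (-1.24 to -0.68) and at 24 h (-0.91 to -0.31), and all 4 were higher at 24 h than at 6 h (0.20 to 0.93). CCND1, the cyclin D1 gene, gave 93.2, 50.8 and 100.7, with its 2 probe sets at -1.07 and -0.88 at 6 h. Cyclin D2 was thus low at 6 h and between its 6 h and untreated signals at 24 h, whereas cyclin D3 was not.

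The kinase CDK6 was lower at 6 h by every kept probe set. Its brightest probe set gave 2819 untreated, 1834 at 6 h and 2365 at 24 h. This is a 1.54-fold lower signal at 6 h, and 27 of 798 genes of similar signal (mean log2 within 0.5), or 3.38%, were at least as low. The next probe sets gave 2449, 1758 and 2048, and 1144, 808 and 962. Over all 6 kept probe sets the 6 h log2 difference ran from -0.88 to -0.35 (mean -0.57 ± 0.18, SD over probe sets, n = 6). All 6 were then higher at 24 h than at 6 h, by 0.22 to 0.70, and of 798 genes of similar signal 2.38% were at least as much higher. At 24 h CDK6 remained at -0.25 against untreated cells by its brightest probe set, with 4 probe sets below and 2 above 0. The seventh probe set, with signals from 1.3 to 2.4, was under the floor on every array. Probe sets of a gene share the RNA sample, so their spread covers probe error and isoforms and not variation between cultures.

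CDK4, the other partner of D-type cyclins, has a single probe set, with signals of 1453, 1199.5 and 1460.1. It was lower at 6 h by a log2 difference of -0.28, a distance that 22.0% of 1181 genes of similar signal reached, and at 24 h it differed by 0.01. CDK4 and CDK6 were both lowest on the 6 h array, as were CCND2 and CCND1, and CCND3 differed by 1.01-fold there. The poly-A spikes, given above, were lower at 6 h and higher at 24 h, and their part in this course was not tested.

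The bases before the transcription start of CDK4 are shown because they hold 3 copies of the E-box CACGTG, the hexamer bound by MYC and related factors. Upstream windows are 250 bases long, come from RefSeq on GRCh38.p14 and run 5′ to 3′ on the gene's strand. Windows were found for 10 of 10 members, 16 in all since some genes have several starts. They were searched on both strands for CACGTG, the CCAAT box (CCAAT), the forkhead core GTAAACA and the E2F forms TTTCGCGC, TTTCCCGC, TTTGGCGC and TTTGCCGC, none of which overlap in the windows shown. Matches are in capitals. The CDK4 window is chr12:57752311-57752560, minus strand, with the E-boxes starting 216, 196 and 101 bases before the start. CACGTG occurs in 6.34% of 35116 RefSeq windows of this length, CCAAT in 32.01%, the forkhead core in 2.98% and the E2F forms in 2.79%.
CDK4: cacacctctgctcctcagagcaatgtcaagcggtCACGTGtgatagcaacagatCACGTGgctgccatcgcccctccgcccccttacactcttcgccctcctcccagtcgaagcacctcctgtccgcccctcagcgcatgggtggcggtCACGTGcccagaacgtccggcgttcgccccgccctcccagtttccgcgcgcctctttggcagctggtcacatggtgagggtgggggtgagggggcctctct
These matches describe the letters only, and no binding was measured.

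**Figure D2:**
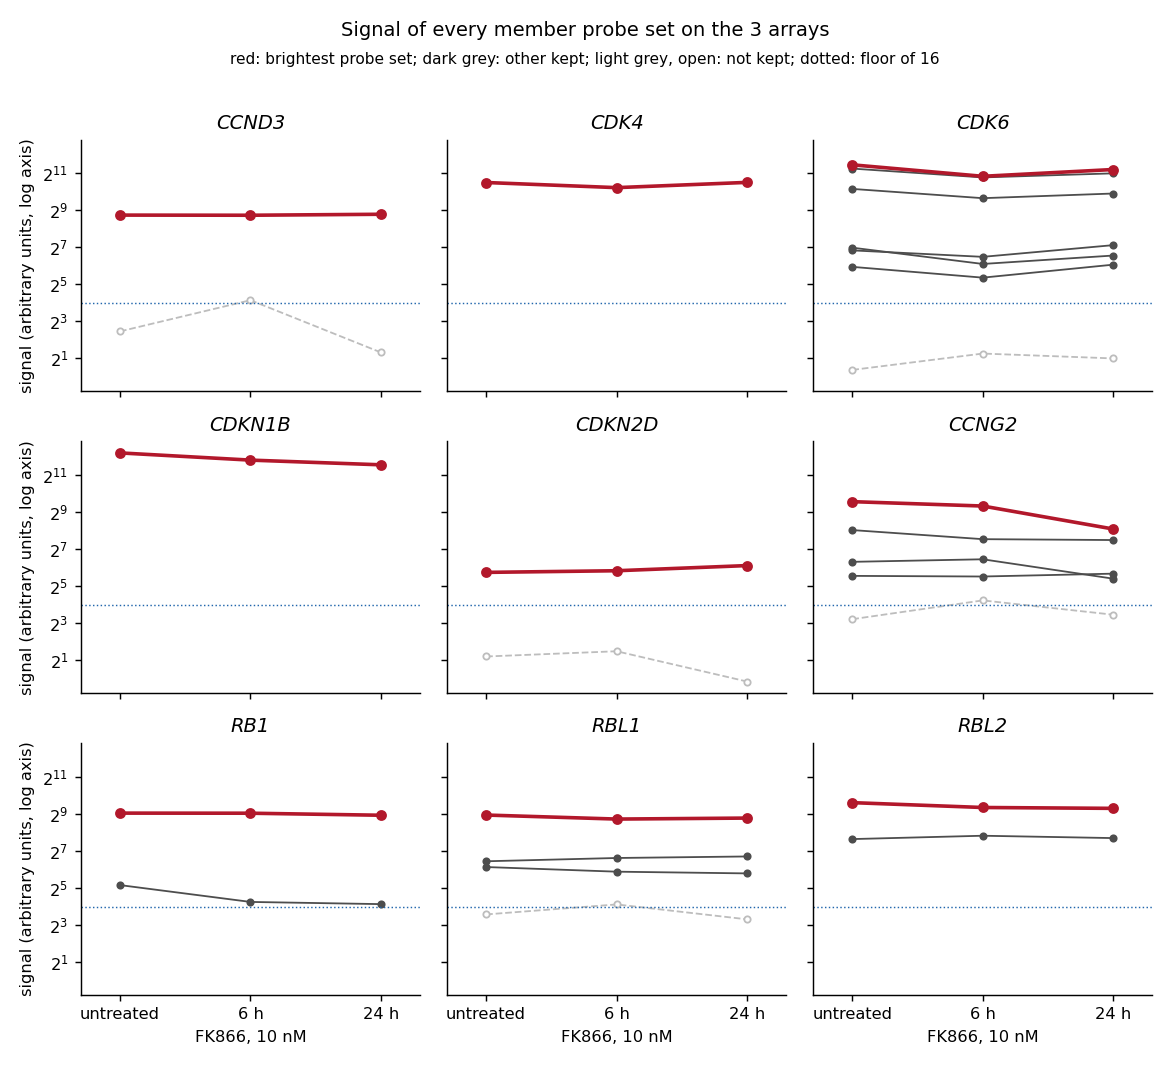
Signal of every probe set of the 9 members (vertical axis, arbitrary units, log axis) on the untreated, 6 h and 24 h arrays (horizontal axis), 1 point per array. Red lines are brightest probe sets, dark grey other kept ones, light grey open points those not kept, and the dotted line is the floor of 16; the 6 kept CDK6 lines dip at 6 h, and the brightest CCNG2 line drops at 24 h.

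Among the CDK inhibitors, CDKN1B was lower at both times and lowest at 24 h. This gene for p27, which holds CDK2 complexes inactive in quiescent cells, gave 4713 untreated, 3598 at 6 h and 3017 at 24 h. The log2 differences from untreated cells were -0.39 and -0.64, the latter 1.56-fold. Of 507 genes of similar signal, 9.07% were at least as low at 6 h and 2.96% at 24 h. Between the treated arrays CDKN1B differed by -0.25, and 10.7% of those genes were at least as low. It has 1 probe set, so there is no second measurement of p27 transcripts here.

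CDKN2D, the INK4 inhibitor p19, was the member with the highest difference at 24 h. It gave 53.7, 57.1 and 69.3, log2 differences of 0.09 and 0.37, and 15.3% of 1394 genes of similar signal were at least as high at 24 h. The 24 h difference is smaller than 0.55, the pooled SD at 24 h between probe sets of a gene, for genes with a brightest signal under 64. That SD covers disagreement between probe sets and not variation between arrays or cultures, so it does not test this difference. Its other probe set, from 0.9 to 2.8, lay under the floor on every array.

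CCNG2, which encodes cyclin G2, a cyclin that rises in cells leaving the cycle, was the only member past 2-fold. Its brightest probe set gave 759 untreated, 644 at 6 h and 272 at 24 h. The signal was thus close to the untreated one at 6 h (log2 difference -0.24) and 2.79-fold lower at 24 h (-1.48). Only 16 of 1732 genes of similar signal (0.924%) were at least as low at 24 h, and 5 (0.289%) when 24 h was set against 6 h, where CCNG2 was 2.37-fold lower. The other kept probe sets did not all follow. They gave 262, 186 and 180.3, then 79.7, 87.7 and 42.4, and then 47.1, 46.0 and 51.2 in untreated, 6 h and 24 h cells. The first of these was lower at both times (-0.49 and -0.54), the second only at 24 h (-0.91), and the third differed by 0.12 at 24 h. The mean over the 4 kept probe sets was -0.70 ± 0.67 at 24 h (SD over probe sets), which is not 2-fold. The fifth probe set, with signals from 9.3 to 18.8, was not kept.

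CDKN1B and CCNG2 were the lowest members at 24 h, and their upstream windows are shown side by side for that reason. The CDKN1B window is chr12:12717118-12717367, plus strand, and holds 2 CCAAT boxes, 174 and 50 bases before the start. The CCNG2 window is chr4:77156957-77157206, plus strand, and holds 1 E-box, 30 bases before the start. Neither window contains the forkhead core, nor does that of any other member.
CDKN1B: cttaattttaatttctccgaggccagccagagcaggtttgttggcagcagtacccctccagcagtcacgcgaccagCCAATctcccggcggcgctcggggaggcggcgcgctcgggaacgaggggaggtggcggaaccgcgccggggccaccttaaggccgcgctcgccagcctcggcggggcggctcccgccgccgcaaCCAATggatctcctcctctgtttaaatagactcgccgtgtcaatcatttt
CCNG2: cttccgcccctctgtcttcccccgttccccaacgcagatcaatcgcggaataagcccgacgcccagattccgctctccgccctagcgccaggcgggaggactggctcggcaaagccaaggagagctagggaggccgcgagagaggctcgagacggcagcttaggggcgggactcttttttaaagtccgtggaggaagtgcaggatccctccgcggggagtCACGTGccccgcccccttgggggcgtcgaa
The windows are short, and FOXO sites described for such genes can lie elsewhere.

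The pocket proteins, which hold E2F factors in check, were within 1.5-fold of untreated cells by their brightest probe sets. RB1, the retinoblastoma gene, gave 529, 527 and 488 by its brightest probe set, log2 differences of -0.0049 at 6 h and -0.11 at 24 h. Its second probe set gave 35.7, 19.0 and 17.5, log2 differences of -0.91 and -1.03, with both treated signals next to the floor. The RB1 probe sets thus disagree, and the dim one alone was past 2-fold at 24 h.

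RBL1, which encodes p107, gave 492, 423 and 439 by its brightest probe set, log2 differences of -0.22 and -0.16. Its other kept probe sets went opposite ways: 87.1, 98.5 and 104 in the first and 70.2, 59.0 and 55.3 in the second. RBL2, which encodes p130, the pocket protein of resting cells, gave 783, 653 and 632 by its brightest probe set, log2 differences of -0.26 and -0.31. Its second probe set gave 200.0, 227 and 208, log2 differences of 0.18 and 0.05. About 24% of 1594 genes of similar signal were at least as low as RBL2 at each time (24.2% and 23.7%). Against untreated cells, the kept probe sets of RBL1 and of RBL2 did not share a sign at either time.

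The upstream window of RBL1 is shown because it is the only one of the members' 16 windows with an E2F form, and E2F factors are known regulators of this gene. It is chr20:37095998-37096247, minus strand, and holds 2 forms, 26 and 16 bases before the start.
RBL1: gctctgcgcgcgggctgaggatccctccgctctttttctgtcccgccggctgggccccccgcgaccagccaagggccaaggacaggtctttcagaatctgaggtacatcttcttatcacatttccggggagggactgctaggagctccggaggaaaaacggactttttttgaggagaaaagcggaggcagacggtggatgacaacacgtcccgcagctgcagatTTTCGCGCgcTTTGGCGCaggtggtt
The only RB1 window in the table begins at base 48476200 of chromosome 13, inside the gene, which runs from 48303751 to 48481890, so it is not the window of its main start.

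**Figure D3:**
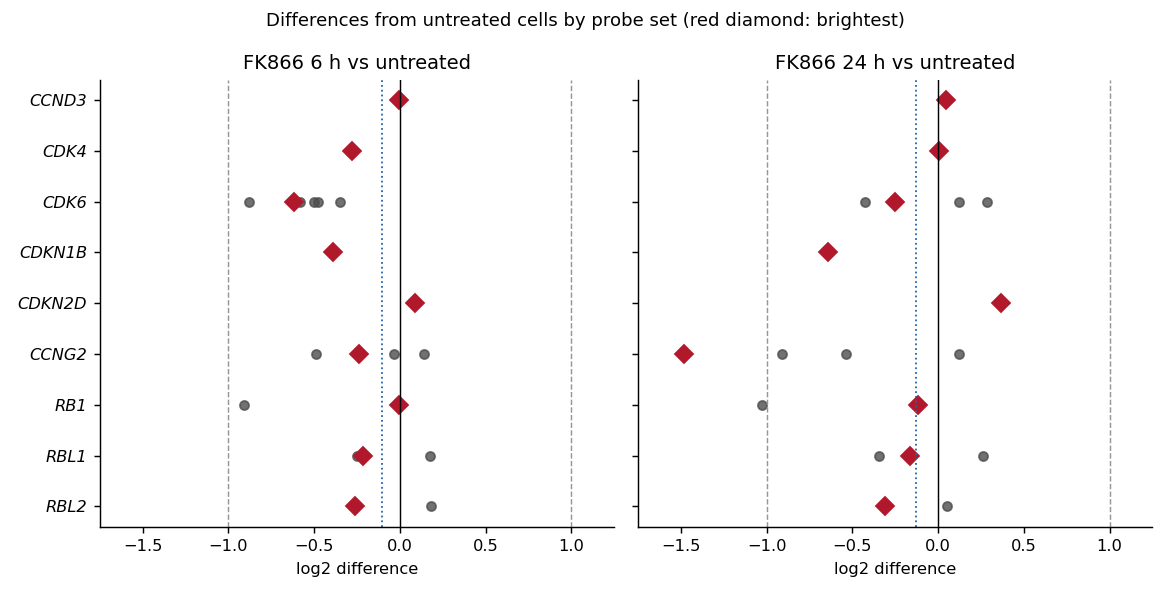
Log2 difference from untreated cells (horizontal axis) of each kept probe set of the 9 members (rows) at 6 h (left) and 24 h (right). Red diamonds are brightest probe sets, grey points the others, dashed lines 2-fold and the blue dotted line the median of all genes; the CDK6 probe sets lie together at 6 h, while those of CCNG2 spread from -1.48 to 0.12 at 24 h.

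The genes around the members in the G1 pathway were read from fixed lists. These lists were chosen with earlier results of these data known, so their counts are no independent support. Of 11 other G1 cyclins and kinases, 10 were measured, with 1 at least 2-fold lower at 6 h (3.32% of all genes). At 24 h, 0 were 2-fold lower (4.17% of all genes) and 0 higher (1.14%). Their median was -0.29 at 6 h and -0.13 at 24 h. The cyclin E genes had different time courses. CCNE1 gave 738, 524 and 784, so it was lower at 6 h (-0.49) and at 0.09 at 24 h. CCNE2 gave 587, 286 and 347, 2.05-fold lower at 6 h and -0.76 at 24 h, but by its second probe set it was at 0.01 and -0.07. CDK2, their kinase, gave 544, 515 and 433 (-0.08 and -0.33).

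Of 5 other CDK inhibitors, 4 were measured and 0 were 2-fold higher or lower at either time. Over all genes, 1.44% were 2-fold higher and 3.32% lower at 6 h, and 1.14% and 4.17% at 24 h. A count of 0 among so few genes gives no share to read against these. CDKN1A (p21) gave 591, 464 and 587, log2 differences of -0.35 and -0.01. CDKN1C (p57), of the same family as CDKN1A and CDKN1B, gave 118, 80.7 and 78.5 (-0.55 and -0.59). All 4 of its kept probe sets were lower, at 6 h from -0.72 to -0.20 and at 24 h from -1.32 to -0.20. CDKN2A was dim, with 23.9, 3.9 and 25.6, and both probe sets of CDKN2B lay under the floor, at 0.5 to 3.1. Neither of these INK4 genes thus gave a usable difference.

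Genes that control the turnover of p27 and of D cyclins were within 2-fold of untreated cells. Of 13 measured, 0 were 2-fold different at either time (of all genes, 1.44% higher and 3.32% lower at 6 h, 1.14% and 4.17% at 24 h). At least 1.5-fold lower were 1 at 6 h (11.4% of all genes) and 2 at 24 h (14.2% of all genes). The list medians were -0.09 and -0.22. SKP2, the ubiquitin ligase subunit that marks p27 for degradation, gave 1407, 1540.5 and 1407, and its cofactor CKS1B 6512, 6118 and 5274. AMBRA1, an adaptor for the degradation of D cyclins, had the lowest value of this list, -0.75 at 24 h, with its second probe set at 0.36. FBXW7, the ubiquitin ligase subunit that marks cyclin E for degradation, gave 465, 328 and 308 (-0.50 and -0.60), and all 4 of its kept probe sets were lower at 6 h (-0.69 to -0.26) and at 24 h (-0.71 to -0.20).

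Downstream of the pocket proteins, E2F1 and E2F8 were at least 1.5-fold lower at both times by their brightest probe sets. By the same measure, the 25 measured genes of the separate list of E2F targets were not. Of 10 E2F factors and partners, 1 was 2-fold lower at 6 h (3.32% of all genes) and 0 at 24 h (4.17% of all genes). Their medians were -0.21 and -0.32, and 8 and 9 of 10 lay below 0. E2F1, an activator of S phase genes, gave 154, 76.2 and 95.6 (2.02-fold lower at 6 h and 1.61-fold at 24 h), with its second probe set at -0.35 and -0.58. E2F8, a repressor of the family, gave 1629, 1023.5 and 948 (-0.67 and -0.78). Of 25 measured genes on the list of E2F targets of the G1 to S transition, 0 reached 1.5-fold at either time by their brightest probe sets. Some dimmer probe sets did, namely of CDT1 (-0.77) and CHAF1A (-0.66, with another at 0.56) at 6 h and of MCM6 (-0.64) at 24 h. Over all genes, 11.4% were 1.5-fold lower and 5.71% higher at 6 h, and 14.2% and 5.03% at 24 h. These shares include dim genes, whereas the 25 gave signals from 250 to 13466. The count of 0 was thus not set against genes of similar signal. E2F1, E2F8 and CCNE2 stood on other lists and are not among these 25. The medians of the 25 were -0.20 at both times, with 17 and 15 of 25 below the median gene. A further list covers MuvB, the group of proteins that RBL1 or RBL2 joins to repress cell cycle genes. It also holds other partners of MuvB, namely MYBL1, MYBL2 and FOXM1. Of the 8 genes on this list, 0 reached 2-fold, with medians of -0.23 and -0.35. Over all genes, 1.44% were 2-fold higher and 3.32% lower at 6 h, and 1.14% and 4.17% at 24 h. At 1.5-fold, 1 was lower at 6 h (11.4% of all genes), LIN54 at -0.75, and 3 at 24 h (14.2% of all genes): LIN37 at -0.73, LIN54 at -0.85 and MYBL1 at -0.79.

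FOXO factors and other FOXO targets, the list that shares its regulators with CDKN1B, CCNG2 and RBL2, held both lower and higher genes. Like the other lists, this one was drawn up with earlier results known, so its counts are no support for a change of the list. Of 15 measured genes, 2 were 2-fold lower at 6 h (3.32% of all genes) and 3 at 24 h (4.17% of all genes), and 0 were 2-fold higher. The ubiquitin ligase subunit FBXO32 gave 988, 1170.4 and 76.1, so by its brightest probe set it was low only at 24 h. All 6 of its kept probe sets were lower at 24 h (-4.25 to -2.44), but at 6 h they already ranged from -2.51 to 0.24. CITED2, a transcriptional coregulator, was 2.32-fold lower at 24 h, with its 2 probe sets at -1.21 and -1.06. BCL6, a transcriptional repressor with 1 kept probe set, was dim. It was at least 4-fold lower at 6 h, its signal there (13.1) lying under the floor. At 24 h it was 3.15-fold lower, with its signal (20.3) next to the floor. BCL6 is among the 2-fold lower genes of the list at both times, so these counts rest in part on signals at the floor. GADD45A, a stress-response gene, was 2.02-fold lower at 6 h and -0.81 at 24 h. FOXO3 itself gave 6535, 6263 and 6346, and FOXO1 121, 87.1 and 105, so neither factor's transcript was 2-fold different. At 1.5-fold, 4 were lower and 1 higher at 6 h (11.4% and 5.71% of all genes). At 24 h, 5 were lower and 1 higher (14.2% and 5.03% of all genes). The higher gene at 24 h was SESN1, a sestrin, which gave 663, 979 and 1009 (0.56 and 0.60). BCL2L11 gave 2165, 1228 and 1192.5 (-0.82 and -0.86). All 7 of its kept probe sets were lower at 6 h (-1.60 to -0.58) and at 24 h (-1.68 to -0.86).

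**Figure D4:**
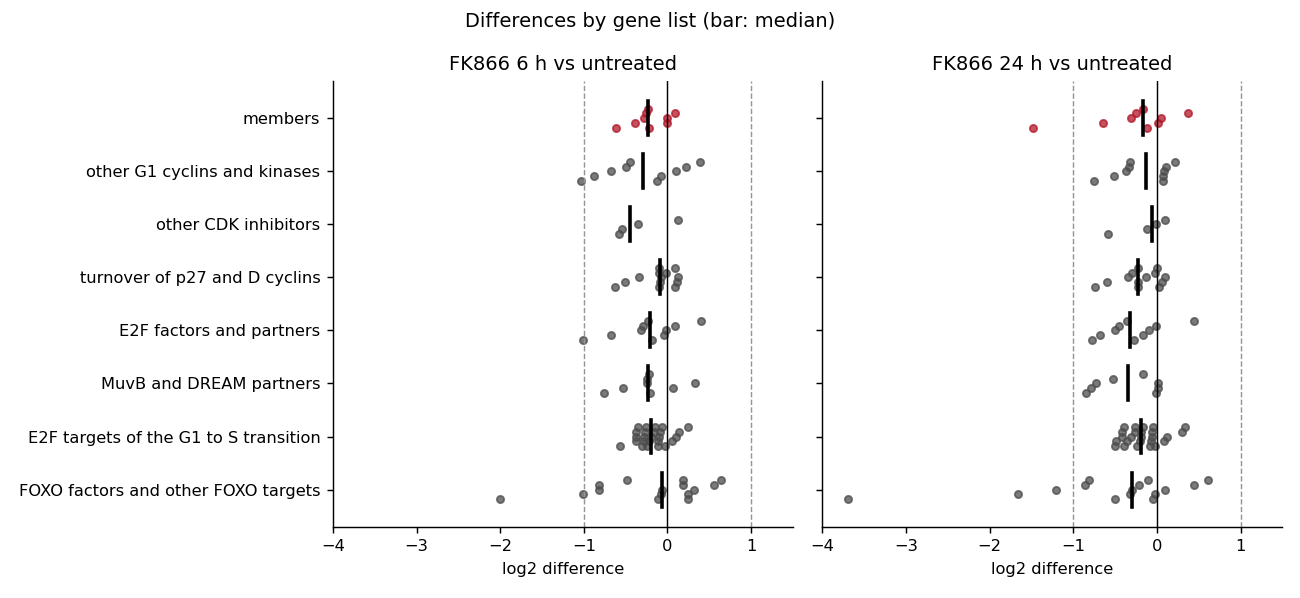
Log2 difference from untreated cells (horizontal axis) at 6 h (left) and 24 h (right) for the members (red) and 7 lists of related genes (grey), 1 point per gene by its brightest probe set, spread vertically for legibility. Black bars are medians and dashed lines 2-fold; the E2F targets cluster near their medians of -0.20, and FBXO32 is the leftmost point at 24 h.

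Set side by side by their brightest probe sets, the members had different time courses on these 3 arrays. CDK4 and CDK6 were lowest at 6 h, CDKN1B and CCNG2 were lowest at 24 h, and CCND3 stayed within 1.04-fold across all arrays. The other CCNG2 probe sets did not all follow. For CDK4 at 6 h, 22.0% of genes of similar signal were at least as low. The array averages all cells of a culture, so fewer cells in a phase of the cycle and less transcript per cell cannot be told apart. The comparisons share the untreated array or the 6 h array, so a single high or low array moves 2 of them at once.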

How the data were processed

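Total RNA of each MM1S culture (1 µg) was turned into biotinylated cRNA for Affymetrix arrays, per the labels' protocols. The deposited table gives 1 linear intensity per probe set and array for 54675 probe sets; summary, background correction and scaling are not given in the sources used here. Genes were named from GEO's platform annotation, through the 41097 probe sets with 1 symbol. Signals were set to a floor of 16, taken to log2, filtered at the median of mean log2 signal, and summarised by the brightest probe set. Differences are between 2 arrays, with calls at a fixed size of 2-fold; the number of arrays limits the precision. Text names all members, list genes past 2-fold, and set pathway genes. AMBRA1, FBXW7, CDKN1C, E2F8, LIN37, LIN54, MYBL1, SESN1 and BCL2L11 were chosen after their values were seen. So were CCNB1, CCNB2, CCNB3, CDK5, CDK13, CDK19, CDT1, CHAF1A and MCM6. The members and lists were chosen with earlier results of these data known. Alternatives changed scaling, floor, filter, probe set summary and size. The procedure was tested on simulated data with changes larger than 2-fold in brighter genes, so that test does not bear on smaller differences or dim genes. Upstream sequences came from RefSeq promoter windows, GRCh38.p14, without the transcribed bases. Python 3.11.15, numpy 2.4.6, pandas 2.3.3 and matplotlib 3.10.9 were used.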

Additional observations from a re-analysis of the deposited data

How the results depend on the processing

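No paired analysis was possible because each group has 1 array. With the mean over probe sets, 0 members in place of 1 were 2-fold lower at 24 h and 0 in place of 1 between the treated arrays, since CCNG2 then differed by -0.70 and -0.55; RB1 moved to -0.46 at 6 h and -0.57 at 24 h. At 1.5-fold, 1 member was lower at 6 h and 2 at 24 h. The other counts of members kept their value under 9 alternatives, which apart from the 1.5-fold one counted at 2-fold. With quantile normalization, CDK6 at 6 h (-0.49) and CDKN1B at 24 h (-0.46) fell short of 1.5-fold, and CDKN2D at 24 h passed it (0.61). With the median gene difference subtracted, CDK6 (-0.52) and CDKN1B (-0.51) fell short too, as did CDK6 with the mean over probe sets (-0.57). At 6 h the members' median ran from -0.25 to -0.13, and at 24 h from -0.25 to -0.03. Between the treated arrays it ran from -0.05 to 0.10. Quantile normalization and subtraction of the median gene difference turned the sign of the small values of CCND3 at 6 h and of RB1 at both times, and quantile normalization that of RBL2 between the treated arrays. CDK4 and CDKN2D have no value without probe sets that may cross-hybridise, nor CDKN2D with a filter at the 75th percentile. Over all genes, a floor of 64 left 49 higher and 115 lower at 6 h, 36 and 161 at 24 h, and 20 and 49 between the treated arrays. With log2(signal + 32) these were 43 and 91, 25 and 158, and 20 and 48. With the 75th percentile filter they were 43 and 93, 32 and 130, and 16 and 46. On the deposited scale they were 171 and 395, 135 and 495, and 130 and 219. Dim probe sets limit the INK4 genes.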

Other observations

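Other cyclins and CDKs, taken by symbol after the data were seen, give a frame for the G1 genes. Of 31 such genes, 27 were measured. At 6 h, 0 were 2-fold lower (3.32% of all genes) and 0 higher (1.44%). At 24 h, 2 were 2-fold lower (4.17% of all genes) and 0 higher (1.14%). At 6 h the list median was -0.15, with 19 of 27 genes below 0. The mitotic cyclins CCNB1 and CCNB2 were higher at 6 h, by 0.47 (2256 to 3119) and 0.51 (1940.3 to 2766), both short of 1.5-fold. At 24 h they differed by 0.12 and 0.01. CCNB3 was dim (35.8 untreated) and differed by -0.37 at 6 h. CCNL2, a cyclin of RNA splicing, was 2.02-fold lower at 24 h (579 to 286), with its 3 probe sets between -1.41 and -0.38. CCNO was at least 2.39-fold lower at 24 h, from a dim 38.2 to a signal under the floor. CDK13, a kinase of transcription elongation, gave 1128.5, 764 and 607, but its 6 probe sets ranged from -0.90 to 0.66 at 24 h. CDK5, a kinase active outside the cell cycle, gave 296, 319 and 422, a log2 difference of 0.51 at 24 h. CDK19 gave 119, 215 and 172 (0.85 and 0.52), but its 3 probe sets ranged from -0.40 to 0.85 at 6 h. At 1.5-fold, 3 of the 27 were lower and 1 higher at 6 h (11.4% and 5.71% of all genes). At 24 h, 6 were lower and 0 higher (14.2% and 5.03% of all genes).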
